A study of Rattus norvegicus with 44 samples.

Results

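The side-to-side difference left in the cortex of sham-operated rats 3 d after surgery was examined in 8 of the 44 arrays of the series. The members were the 4 arrays of the ipsilateral area and the 4 arrays of the contralateral area that carried the labels sham and 3 d, and each operated array was paired with the opposite-side array that bore the same rat number, 13 to 16. The series measured mRNA on single-colour Agilent Whole Rat Genome microarrays in the cortex of adult Sprague-Dawley rats whose middle cerebral artery (MCA) was permanently occluded, of rats with sham surgery and of healthy rats. A sham rat had the same anaesthesia with ketamine, diazepam and atropine, the same meloxicam analgesia and the same small craniotomy over a branch of the right MCA, but no occlusion. The study's methods also describe a transient closure of both common carotid arteries in the occluded rats, and whether any part of that step was done in the sham rats is not spelled out. The opposite cortex is therefore not untouched tissue, because it belongs to the same anaesthetised and operated animal, and a response of both sides would not appear in this comparison. Each array carried RNA pooled from 3 rats, so that the 4 pairs stand for 4 pools and a rat number names a pool here. Outside these 8 arrays, the sham arrays at 24 h (pools 5 to 8), the periinfarct and contralateral arrays of occluded rats at 3 d (pools 9 to 12) and the 4 arrays of healthy ipsilateral cortex served as references.

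A craniotomy opens the skull and disturbs the meninges and the surface of the cortex even when no vessel is closed. Astrocytes answer such disturbance by becoming reactive: they enlarge, make more of the intermediate filament proteins GFAP and vimentin, and secrete acute-phase proteins, protease inhibitors and chemokines. Microglia, the resident macrophages, divide and take up debris, and blood-derived neutrophils and monocytes may follow. Signals through the transcription factor STAT3 are known to drive a part of the astrocyte programme. The comparison asked how much of such a local response remained on the operated side 3 d after sham surgery.

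No gene was called on the operated side at 3 d. Of 30539 probes kept, 0 passed an adjusted p below 0.05 with at least a 2-fold difference in limma with the pool as a block, which is 0% of the probes, and 0 passed the adjusted p alone. The smallest adjusted p was 1.00, so that every gene described below for 3 d had an adjusted p of 1.00 in limma. SE and 95% intervals are those of limma, which moderates the spread between the 4 pools toward that of all probes. At an unadjusted p below 0.05 there were 957 probes (3.13%), of which 597 (1.95%) had the higher mean on the operated side and 360 (1.18%) the lower. After scaling each array to its 75th percentile in place of quantile normalization, the split was 876 higher and 198 lower. The median log2 difference over all probes was −0.01. Of the probes, 969 (3.17%) had the higher value on the operated side in all 4 pools and 1299 (4.25%) had the lower. All 4 operated arrays stood above all 4 opposite arrays for 86 probes (0.282%) and below them for 143 (0.468%).

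The precision of the 4 pairs differed between bright and dim probes. For the 20754 probes well above background on all 8 arrays, the median 95% confidence interval of the log2 difference reached 0.37 to either side, and for 19924 of them (96.0%) the whole interval lay within 2-fold. In this group 132 probes (0.636%) had an unadjusted p below 0.05 and 2 had a mean difference of 2-fold or more. Of the 8044 probes that were well above background on all 4 arrays of neither side, 732 (9.10%) had an unadjusted p below 0.05, 366 had a mean difference of 2-fold or more, and only 39.9% had an interval within 2-fold. Most of the low p values and of the large differences thus came from dim probes. Over all kept probes the interval lay within 2-fold for 24388 (79.9%). For the remaining probes the interval from 4 pools reached 2-fold or beyond in one direction or the other, so that a difference of that size remained possible.

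**Figure D1:**
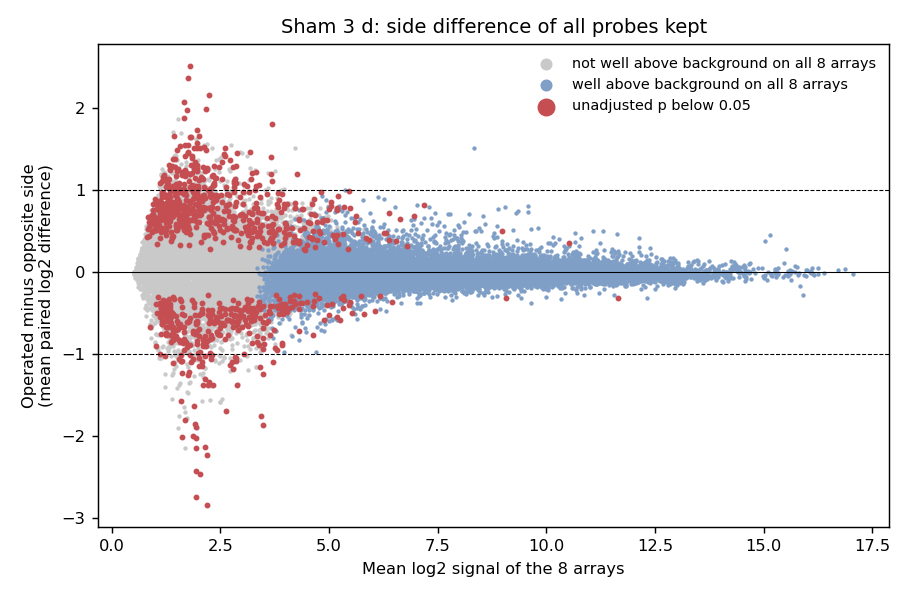
Mean log2 signal of the 8 sham arrays at 3 d (horizontal axis) against the mean paired log2 difference, operated minus opposite side (vertical axis), for each of 30539 probes. Blue points are the 20754 probes well above background on all 8 arrays, grey points the other probes, red points the 957 with an unadjusted p below 0.05, and the dashed lines mark 2-fold; red points lie mostly at low signal, and no probe was called.

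The operated array had the larger share of spots well above background in each pool. The shares in pools 13 to 16 were 72.5%, 69.8%, 68.5% and 73.7% on the operated side. On the opposite side they were 66.2%, 65.9%, 63.9% and 73.4%. The part of this imbalance in the results, those of dim probes above all, was not tested. Any 2 of the 8 arrays had a correlation between 0.947 and 0.989. The 8 arrays lay on 8 different slides, so that slide could not enter their fit. All 4 opposite-side arrays held position 4 of their slide, while the operated arrays of pools 13, 14, 15 and 16 held positions 3, 4, 2 and 1. Side and slide position cannot be told apart in the pools other than 14, and pool 14 had both arrays in position 4. The part of slide position in the results was not tested.

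The reactive astrocyte genes had the highest median of the 27 lists, and it came from a part of the pools. The list had 20 members, all with a kept probe, of which 0 were called, 2 had an unadjusted p below 0.05 with the higher mean on the operated side (10%, against 1.95% of all probes) and 0 with the lower (1.18% of all probes). The median log2 difference of the list was 0.24, against −0.01 over all probes. The order of the lists was not stable: without pool 15 the median was 0.05, the seventh of 27, and with slide as a block in the fit of all 44 arrays 0.09, the tenth. Wherever slide is the block, the pool is not, so that the sides were not paired in that fit. Its values differ from the main fit in more than slide. Taken pool by pool, the list's median was 0.12, −0.15, 0.91 and 0.24 in pools 13 to 16. No member was 2-fold or more higher on the operated side in pools 13 and 14, where 4.01% and 7.45% of all probes were, whereas 9 members were in pool 15 (45%, against 4.51% of all probes) and 3 in pool 16 (15%, against 3.39%).

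Serpina3n, an acute-phase serine protease inhibitor that reactive astrocytes secrete, had the largest difference of the list. Its log2 signal on the operated side was 3.86, 3.28, 5.73 and 5.50 in pools 13 to 16, and on the opposite side it was 3.47, 2.39, 2.29 and 3.00. All pools had the higher value on the operated side, but pools 15 and 16 stood far above the rest and the 2 sides overlapped. The mean log2 difference was 1.80 (SE 0.55, n = 4 pools, 95% interval 0.39 to 3.22), which is 3.49-fold, with an unadjusted p of 0.0219 and an adjusted p of 1.00 in limma. The probe was well above background on all 4 operated arrays and on 2 of the opposite arrays. Healthy cortex ranged from 2.49 to 3.86 for the same probe. The operated arrays of pools 15 and 16 lay well above that range, and that of pool 13 was level with its upper end. The mean difference was 1.26 without pool 15, 0.76 with slide as a block in the fit of all 44 arrays, and 0.35 with normexp, whose offset compresses the differences of dim probes by construction.

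To show the sequence before the start of the gene with the largest difference, and of 2 further members described next, the 250 bases upstream of the annotated start are printed from the RefSeq promoter table of build GRCr8. The letters searched were TTCNNNGAA, the palindromic core bound by STAT factors, and TGANTCA, the core bound by AP-1 factors, on both strands. The capitals mark the match.
Serpina3n, chr6:129088142-129088391, strand plus: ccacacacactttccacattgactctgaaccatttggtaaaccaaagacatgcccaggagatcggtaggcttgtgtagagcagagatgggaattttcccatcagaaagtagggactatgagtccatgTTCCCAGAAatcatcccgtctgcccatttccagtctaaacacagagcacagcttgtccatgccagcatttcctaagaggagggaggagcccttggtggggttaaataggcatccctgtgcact
Timp1, chrX:3771123-3771372, strand minus: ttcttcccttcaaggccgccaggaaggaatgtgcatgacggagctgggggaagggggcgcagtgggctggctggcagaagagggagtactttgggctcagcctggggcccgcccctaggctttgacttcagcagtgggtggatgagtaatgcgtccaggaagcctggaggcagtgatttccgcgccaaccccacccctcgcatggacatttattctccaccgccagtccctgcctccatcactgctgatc
Gfap, chr10:88361662-88361911, strand minus: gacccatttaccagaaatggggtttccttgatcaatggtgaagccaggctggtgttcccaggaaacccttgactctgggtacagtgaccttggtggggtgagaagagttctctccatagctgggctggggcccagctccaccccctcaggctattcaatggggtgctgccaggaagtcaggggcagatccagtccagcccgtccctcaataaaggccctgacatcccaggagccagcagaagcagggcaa
The Serpina3n stretch held 1 match to the STAT letters, with its first base at −123 from the start, and none to the AP-1 letters. The Timp1 and Gfap stretches held neither. The STAT letters occurred in 7.67% of 33469 rat promoter stretches of this length and the AP-1 letters in 6.34%. Among the 9454 genes with a kept probe, each counted once, the shares were 6.35% and 5.06%. Of the 19 reactive astrocyte genes in the promoter table, 3 (Emp1, Serpina3n and Steap4) held the STAT letters and 3 (Cxcl10, Emp1 and Osmr) the AP-1 letters. A match of letters is a description and does not show binding in these animals.

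Gfap and Timp1 showed the same division between pools. Gfap, the filament protein by which reactive astrocytes are usually recognised, read 8.39, 8.05, 9.42 and 9.69 on the operated side of pools 13 to 16 and 8.14, 8.20, 8.28 and 8.57 on the opposite side. The operated arrays of pools 15 and 16 exceeded all other sham arrays at 3 d, and those of pools 13 and 14 lay within the healthy range or close to it (7.96 to 8.51). Its mean difference was 0.59 (SE 0.27, 95% interval −0.10 to 1.28), and a second Gfap probe gave 0.39. The mean of the first probe was 0.13 with slide as a block in the fit of all 44 arrays and 0.51 with normexp. Timp1, an inhibitor of matrix metalloproteinases, read 9.00, 8.75, 10.91 and 10.23 on the operated side against 8.91, 8.91, 8.80 and 9.25. Again only pools 15 and 16 stood out, and the mean difference was 0.75 (SE 0.41).

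Lipocalin 2 (Lcn2), an iron-siderophore carrier secreted by reactive glia, differed by 0.04, −0.74, 2.32 and 1.01 in pools 13 to 16, and Cd44, a hyaluronan receptor, by −0.15, −0.13, 1.58 and 0.86. These genes and Timp1 were near 0 or below it in the first 2 pools. For 9 of the 20 members the operated arrays of pools 15 and 16 both lay above the other 6 sham arrays at 3 d: C3, Cd44, Gfap, Hspb1, Lcn2, S100a6, Serpina3n, Timp1 and Vim. These pools were singled out after their values were seen, so that this count describes them and tests nothing. Set beside the 4 healthy arrays, the operated side exceeded the highest healthy value for 2, 0, 16 and 10 of the 20 members in pools 13 to 16, and the opposite side for 1, 5, 6 and 7. The share of all probes was worked out neither for these counts nor for the 9 of 20, so that they are descriptions only.

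Not all members went along. Osmr, a subunit of the oncostatin M receptor, was not well above background on any operated array and was so on 1 opposite array. Pool 13 differed by −2.64, and the size rests on background values. With operated values raised to the lowest signal well above background on their array, the mean was 1.21-fold higher on the opposite side. This value has no interval. Socs3, a feedback inhibitor of STAT3 signalling, differed by −0.23, −1.45, −0.65 and 0.80, and Stat3 itself by 0.15, −0.44, 0.17 and 0.14. Steap4, a metalloreductase, was the second member with an unadjusted p below 0.05 (0.68, SE 0.25), with a probe well above background on only 2 operated arrays and 1 opposite array. The markers of astrocytes in general, 10 of 10 with a probe, had a median difference of 0.02 and 0 members with an unadjusted p below 0.05. Aqp4, the water channel of astrocyte endfeet, differed by 0.16 (SE 0.13) and Aldh1l1, a folate enzyme of astrocytes, by 0.00 (SE 0.12).

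**Figure D2:**
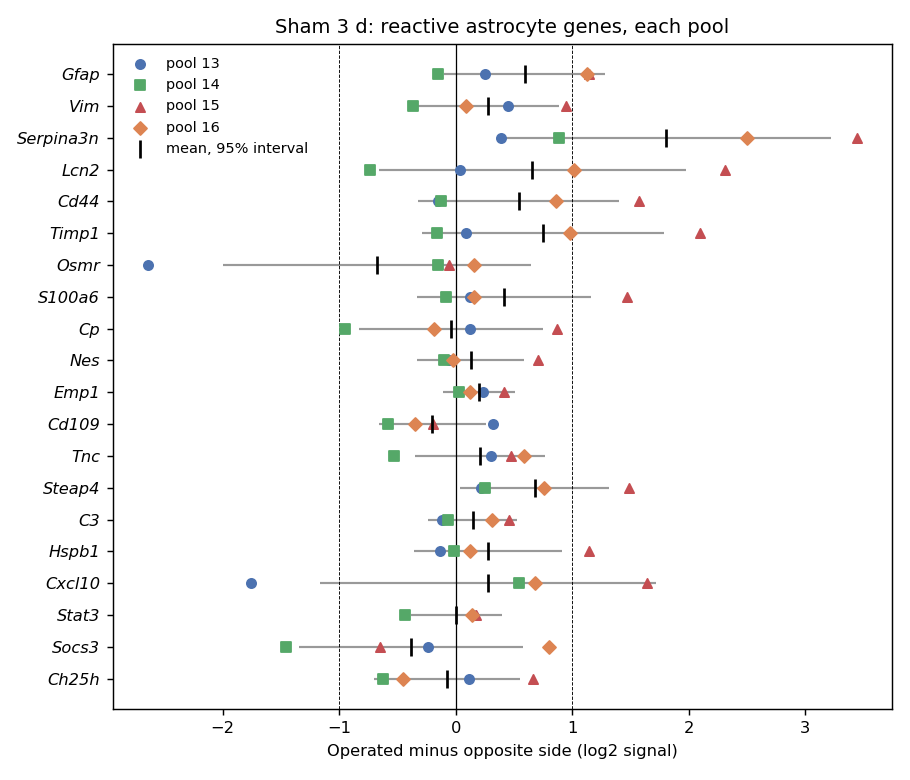
Log2 difference, operated minus opposite side, of the 20 reactive astrocyte genes in sham rats at 3 d, one symbol per pool (pools 13 to 16), with the mean (black tick) and its 95% interval from limma (grey line); dashed lines mark 2-fold. Pool 15 lies to the right for most genes, reaching 3.44 for Serpina3n, pool 16 follows for a part of them, and pools 13 and 14 scatter around 0.

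Some genes outside that list divided the pools in the same way, and others did not. Of the 15 genes with the largest positive differences in pool 15 among bright probes, 11 were outside the list. Of these, 5 were 2-fold or more higher in pool 16 too and 3 were below 0 there. Over all kept probes, dim ones included, 3.39% were 2-fold or more higher in pool 16. A2m, Slpi, H19, Spp1 and Lgals3, chosen after their values were seen, are described here. The 3 that were below 0 in pool 16 were Bcl3, a partner of NF-kappaB (1.74 in pool 15 and −0.19 in pool 16), Col3a1, a fibrillar collagen (1.56 and −0.16), and Fscn3 (1.51 and −0.60). A2m encodes alpha-2-macroglobulin, the broad protease inhibitor that is an acute-phase protein in the rat. Its log2 signal was 7.67, 7.45, 11.06 and 10.24 on the operated side of pools 13 to 16 and 7.39, 7.30, 7.59 and 8.06 on the opposite side, while healthy cortex ranged from 7.27 to 7.52. The operated arrays of pools 15 and 16 thus read more than 2 log2 units above every other sham array at 3 d. The mean difference was 1.52 (SE 0.62, 95% interval −0.07 to 3.11). Slpi, a secreted inhibitor of leukocyte elastase, differed by −0.03, −0.18, 1.93 and 1.26. H19, an imprinted non-coding RNA, differed by 0.26, 0.00, 1.92 and 0.91.

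Of the chemokines and cytokines, 19 of 20 had a probe, 0 had an unadjusted p below 0.05 in either direction, and the median difference was 0.10. Ccl2, the chemokine that draws monocytes, read 3.21, 3.59, 7.02 and 6.13 on the operated side and 2.80, 4.06, 3.23 and 3.76 on the opposite side. Pools 15 and 16 were again high, by 3.78 and 2.37, and the mean difference was 1.52 (SE 0.74). The Ccl2 probe was well above background on 4 operated arrays and on 2 opposite arrays. Its mean was 0.49 with normexp and 1.36 with the slide block. The list's medians per pool were 0.11, −0.07, 0.56 and −0.06, and 7 members were 2-fold or more higher in pool 15 against 2 in pool 16. Il6 and Tnf were not well above background on any of the 8 arrays, and Il1b differed by 0.00, −0.25, 1.00 and −0.04.

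The microglia and macrophage markers were bright on all arrays (18 of 18 with a probe, all well above background on all 8 arrays), and 0 of them had an unadjusted p below 0.05. Their median difference was 0.09, with −0.17, −0.11, 0.46 and 0.21 in pools 13 to 16. Aif1, which encodes the microglial protein Iba1, differed by 0.10 (SE 0.14, 95% interval −0.26 to 0.46), an interval that lies within 2-fold. Cd68, a lysosomal protein of phagocytes, differed by 0.33 (SE 0.19), with 8.07 and 7.75 on the operated side of pools 15 and 16 against a healthy range of 7.03 to 7.21. Spp1, the secreted phosphoprotein osteopontin, read 5.17, 5.62, 8.02 and 8.04 on the operated side and 5.44, 6.06, 6.01 and 5.74 on the opposite side. All 8 values were above the healthy range of 4.75 to 5.15, and only pools 15 and 16 differed between the sides, by 2.01 and 2.30 (mean 0.90, SE 0.57). Lgals3, a galectin of activated phagocytes, differed by 0.08, −0.17, 1.87 and 0.96. In whole cortex, more cells of a type and more RNA per cell cannot be told apart.

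The cell division genes had a list median of 0.18, the second highest, with 0.26, −0.05, 0.45 and 0.23 in pools 13 to 16. Of 16 members with a probe (18 listed), 3 had an unadjusted p below 0.05 and the higher mean on the operated side (18.8%, against 1.95% of all probes) and 0 the lower. After scaling to the 75th percentile their median was 0.28, above the 0.26 of the reactive astrocyte genes, without pool 15 it was 0.14 against 0.05, and with slide as a block in the fit of all 44 arrays it was −0.10. Top2a, the topoisomerase of dividing cells, read 3.56, 3.52, 4.63 and 4.48 on the operated side and 2.59, 3.28, 2.70 and 3.81 on the opposite side. All pools had the higher operated value, the sides overlapped, and the mean difference was 0.96 (SE 0.29). These levels lie near the background, for the probe was well above it on 1 opposite array only, and healthy cortex had 3.56 to 4.19, so that the operated arrays of pools 13 and 14 were at or below the healthy range. Bub1b, a spindle checkpoint kinase, differed by 1.61, −0.18, 1.81 and 1.10, and Mcm5, a subunit of the replicative helicase, by 0.35, 0.04, 0.85 and 0.79 with a probe above background on 1 array of each side. Cdk1, the mitotic kinase and a brighter probe, differed by −0.17, 0.18, 1.58 and 1.02 (SE 0.32). The member with the greatest mean difference in size, Kif11, a motor of the mitotic spindle, was lower on the operated side. It differed by −4.16, −0.81, 1.83 and −2.39 (mean −1.38, SE 0.98), with a probe above background on no operated array and on 2 opposite arrays. The size therefore rests on background values, and pool 15 went the other way. With operated values raised to the lowest signal well above background on their array, the mean was 1.41-fold higher on the opposite side. This value has no interval.

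The lists on neuronal activity and on systemic stress had medians near that of all probes. The immediate-early genes, which neurons switch on within minutes of firing, had a median of 0.05 over 22 of 22 members, with 0 at an unadjusted p below 0.05. Fos read between 7.98 and 9.23 over the 8 arrays and differed by 0.09 (95% interval −0.27 to 0.45), and Egr1 differed by 0.21 (−0.18 to 0.60). Pools 15 and 16 had the lower Fos values on both sides, so that this gene varied between pools and not between sides. The activity-regulated and neuropeptide genes (13 of 16 with a probe) had a median of −0.09, the glucocorticoid-induced genes (11 of 12) 0.02, the heat shock and hypoxia genes (14 of 16) −0.05, the axon injury and growth genes (13 of 14) −0.06 and the interferon-induced genes (18 of 18) 0.10, with 0 members of any of these lists at an unadjusted p below 0.05. Hmox1, the haem-degrading oxygenase in the heat shock and hypoxia list, was 2-fold higher in pool 15 alone (0.00, −0.12, 1.48 and 0.39).

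The markers of neurons had a median difference of 0.00 over 11 of 12 members, with 0 at an unadjusted p below 0.05, and Snap25, a protein of the vesicle fusion machinery, differed by −0.03 (SE 0.15, 95% interval −0.40 to 0.35). Inhibitory neuron markers (8 of 10) had −0.04, upper cortical layer markers (9 of 10) −0.09, deep cortical layer markers (11 of 13) 0.00, striatal markers (12 of 14) −0.09, and thalamus, amygdala and hypothalamus markers (11 of 14) 0.14. Among these, Syt6, a synaptotagmin of deep-layer neurons, had an unadjusted p below 0.05 and the higher value in all 4 pools (0.35, SE 0.14) and Lhx9, a transcription factor of the thalamus, likewise (1.19, SE 0.28), the latter with a probe above background on 2 operated arrays and 1 opposite array. Oligodendrocyte markers (11 of 12) had 0.05 and oligodendrocyte precursor markers (6 of 8) −0.02. No member of the neuron, inhibitory neuron, upper layer, striatal, oligodendrocyte and precursor lists had an unadjusted p below 0.05.

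Markers of blood, vessels and meninges were compared because the operation opens the skull. The summed signal of the 16 meningeal and fibroblast markers with a probe (18 listed) ranged from 65997 to 122823 units on the operated side and from 81119 to 121144 on the opposite side, with a list median of 0.09 and 0 members at an unadjusted p below 0.05. The pool medians were 0.09, −0.50, 0.58 and −0.15, so that pool 15 had more of these transcripts on the operated side and pool 16 did not. The pericyte and smooth muscle markers (9 of 10) likewise had 0.30, −0.07, 0.77 and −0.33, with summed signals of 2874 to 6218 units against 2903 to 3784, and the endothelial markers (12 of 12) 0.11, −0.02, 0.36 and −0.42. The red blood cell markers (4 of 6) had −0.08, −0.23, 0.56 and −0.20. All 4 lists were therefore higher on the operated side of pool 15 and lower on that of pool 16, while the reactive astrocyte genes were higher in both pools. The 16 meningeal markers with a probe were well above background on all 8 arrays. The part of these tissues in the values of pool 15 was not tested.

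Neutrophil markers (10 of 12 with a probe) had a median of −0.05 and 0 members at an unadjusted p below 0.05. S100a8 and S100a9, the calcium-binding pair of the neutrophil cytosol, differed by −0.07 and −0.04 between the sides. Both sides, however, read above healthy cortex: S100a8 ranged from 3.68 to 6.41 over the 8 sham arrays against 1.51 to 3.46 in healthy cortex, and S100a9 from 4.22 to 6.55 against at most 4.14, with the highest values in pool 15 on either side. Alas2, the first enzyme of haem synthesis in red cell precursors, showed the same arrangement apart from 1 array, with 8.51 to 9.95 against 8.29 to 8.58 in healthy cortex. These levels on both sides are descriptions without a test. T cell markers (7 of 10) had a median of 0.07, and their one member with an unadjusted p below 0.05, Cd4, was not well above background on any of the 8 arrays. Choroid plexus and ependyma markers (10 of 12) had 0.15, with Sostdc1, a secreted antagonist of bone morphogenetic proteins, at an unadjusted p below 0.05 and higher in all 4 pools (0.71, SE 0.17) on a probe above background on 4 operated arrays and 1 opposite array. Skeletal muscle markers (10 of 10) had −0.05 with 0 at an unadjusted p below 0.05. The first 2 members of all the lists, 54 genes, ranged from −0.25 for the heat shock gene Hspa1a to 1.52 for Ccl2, and 1 of them, Top2a, had an unadjusted p below 0.05.

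**Figure D3:**
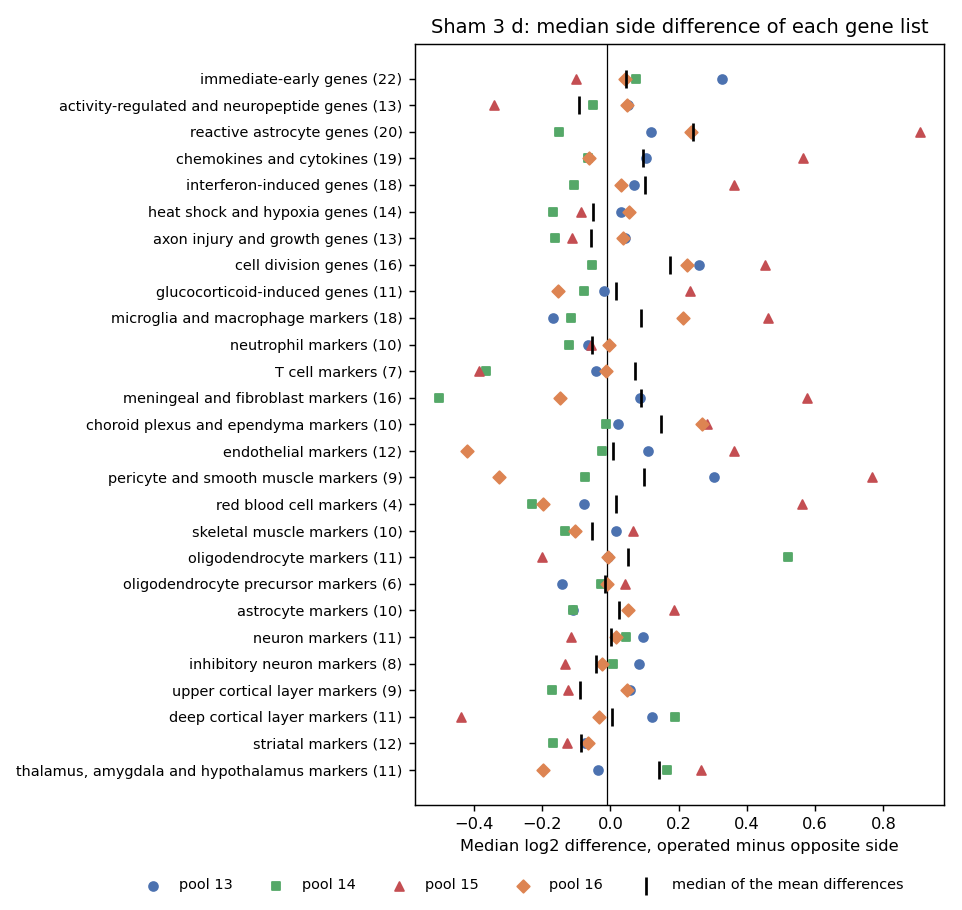
Median log2 difference, operated minus opposite side, of each of the 27 gene lists in sham rats at 3 d, with the number of members that had a probe in brackets; coloured symbols are the medians of the single pools, the black tick is the median of the members' mean differences, and the vertical line marks the median of all probes (−0.01). The list medians lie between −0.09 and 0.24, with the reactive astrocyte genes highest in this fit (not without pool 13, 15 or 16, after scaling to the 75th percentile or with the slide block), and pool 15 is the outermost symbol for many lists.

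The genes with one direction in all 4 pools and a low p were mostly dim or small in effect. Of the genes with an unadjusted p below 0.05, one direction in all pools and a signal well above background on all 4 arrays of at least one side, 45 were higher and 23 lower on the operated side, and the 12 with the largest means in each direction were taken. None was called. The higher ones were Serpina3n, Hk3, Myl7, Cdh29, Top2a, Bpifa1, RatNP-3b, LOC100359476, Oacyl, Actg2, Slc7a3l1 and Akp3, with mean differences from 1.80 down to 0.79. All 12 were well above background on all operated arrays, but only 3 on all opposite arrays and 5 on at most 1, so that they passed the signal filter through the side on which they were high. With normexp these means were 0.07 to 0.54, and with slide as a block in the fit of all 44 arrays 3 of the 12 turned direction. Hk3, a hexokinase of myeloid cells, read 4.02, 3.26, 3.55 and 3.65 on the operated side and 3.02, 0.54, 2.10 and 3.01 on the opposite side. All 4 operated arrays stood above all opposite arrays and the mean difference was 1.46 (SE 0.36). The probe was well above background on 1 opposite array only, so that the size rests on background values, and the mean was 0.10 with normexp. Myl7, a myosin light chain of the atria, differed by 2.96, 1.50, 0.35 and 0.81 on a probe above background on 1 opposite array, and its mean of 1.41 was −0.36 with the slide block. Actg2, the smooth muscle gamma actin, differed by 0.12, 1.79, 0.79 and 0.56. Bpifa1, Slc7a3l1 and Akp3 had almost no difference in pool 15 (0.00, 0.00 and 0.06), so that their pools were ordered unlike those of the astrocyte genes, and the mean of Bpifa1 was −0.04 with the slide block. Their operated means, 5.11, 5.45 and 5.75, were level with the healthy medians of 5.09, 5.43 and 5.67. Their opposite means were lower, 4.22, 4.64 and 4.95. Of the 12 higher genes, only Serpina3n, Oacyl and Actg2 lay further from the healthy median on the operated side than on the opposite side.

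The lower ones were Rgs18, Ccl21, Elk1, Proc, Neil1, Cdh23, Acan, Prdm1, Klhdc8a, Ss18l1, Chml and Dio3, with mean differences from −1.24 to −0.47. Rgs18, a regulator of G-protein signalling in platelets and myeloid cells, read 3.73, 2.92, 2.18 and 2.58 on the operated side and 5.10, 4.12, 4.17 and 2.98 on the opposite side, a mean of −1.24 (SE 0.27). Ccl21, a chemokine of lymphatic vessels and lymphoid tissue, differed by −0.45, −0.75, −0.93 and −0.94 (mean −0.77, SE 0.13). Acan encodes aggrecan, the proteoglycan of perineuronal nets, and differed by −0.76, −0.42, −0.54 and −0.36 (mean −0.52, SE 0.12). Of these 3 genes only Rgs18 had a mean above 2-fold, and the mean of Acan was 0.05 with the slide block. With normexp the means of the 12 lower genes were −0.21 to −0.04, and that of Rgs18 was −0.18. Dio3, the deiodinase that inactivates thyroid hormone, differed by −0.40, −0.46, −0.63 and −0.42, but its other probe, which was dimmer, had a mean of 0.62, so that its probes disagreed in direction.

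**Figure D4:**
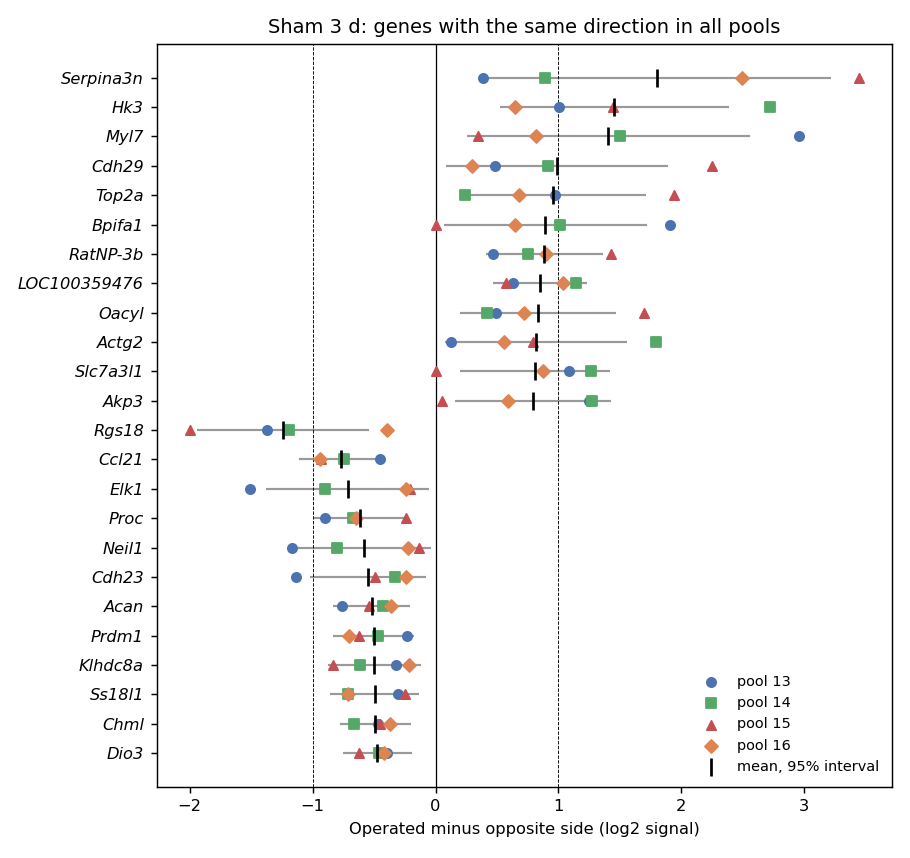
Log2 difference, operated minus opposite side, in each of pools 13 to 16 for the 24 genes with one direction in all pools and an unadjusted p below 0.05 that had the largest means; the black tick is the mean and the grey line its 95% interval from limma. The upper 12 genes lie to the right of 0 in every pool and the lower 12 to the left, and the spread of the symbols is as wide as the mean for most of the upper ones.

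The side differences were unlike from pool to pool. Over the 20754 bright probes, those 2-fold or more higher on the operated side numbered 110, 617, 85 and 99 in pools 13 to 16, and those 2-fold or more lower numbered 225, 69, 128 and 53. The SD of the differences was 0.34, 0.42, 0.35 and 0.28. Across these probes the differences of 2 pools had correlations between −0.43 (pools 15 and 16) and 0.17 (pools 13 and 16). These correlations run over probes of the same arrays and are descriptions. Of the 20 reactive astrocyte genes, 14 were higher on the operated side in both pools 15 and 16, and 5 had opposite signs in them. The corresponding shares of all probes were not worked out. Among the 15 largest positive differences of pool 14 were Cox7c, a subunit of cytochrome oxidase, at 2.75, Tpt1, a translationally controlled growth protein, at 2.72, Eif1, a translation initiation factor, at 2.28 and S100b at 2.14. In pool 15 these 4 genes differed by −0.39, −0.55, −1.51 and −0.85, and they were chosen after their values were seen.

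The same comparison at 24 h, in other rats, again gave no call. Of the probes 0 were called in limma at 24 h and 1017 (3.33%) had an unadjusted p below 0.05, 413 (1.35%) higher and 604 (1.98%) lower on the operated side. Of the reactive astrocyte genes 4 of 20 were among the higher ones. The mean difference was larger at 24 h than at 3 d for 14 of the 20 and smaller for 6, Vim (0.13 against 0.28) and Steap4 (0.12 against 0.68) among them. A2m was smaller at 24 h as well (1.07 against 1.52). The reactive astrocyte list had a median of 0.43, with 0.99, 1.00, 0.25 and −0.15 in pools 5 to 8, so that the pools were as unequal as at 3 d. Serpina3n differed by 5.38, 4.45, 1.66 and 3.34 in these pools (mean 3.71, SE 0.64), and all 4 pools had the higher value on the operated side. Gfap differed by 2.45, 2.20, 0.23 and 0.89, Spp1 by 4.24, 2.76, 3.33 and −0.07, and Timp1 by 3.58, 2.09, 0.66 and 0.46.

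The change of the side difference from 24 h to 3 d was tested itself, and 0 probes were called. In this test 566 probes (1.85%) had an unadjusted p below 0.05, 388 (1.27%) with the higher and 178 (0.583%) with the lower difference at 3 d, and the smallest adjusted p was 0.0841. The side difference of Serpina3n was smaller at 3 d by 1.90 on the log2 scale (SE 0.94), that of Gfap by 0.85 (SE 0.55) and that of Spp1 by 1.67 (SE 1.04). A decline of the local response between the times was therefore not shown for any of these genes after correction, and the rats differed between the times.

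After occlusion the side difference of these genes at 3 d was larger in 3 of the 4 pools. In pools 9, 10 and 12 the reactive astrocyte list had medians of 3.21, 3.48 and 2.42, and in pool 11 it had −0.02. The 2 arrays of pool 11 were alike over all bright probes, with an SD of their difference of 0.25 against 0.81, 0.93 and 0.71 in pools 9, 10 and 12. Serpina3n read 5.36 on the array labelled periinfarct and 5.42 on the array labelled contralateral of pool 11, whereas the other periinfarct arrays ranged from 9.87 to 10.91 and the other contralateral arrays from 2.43 to 3.65. The values of pool 11 thus do not separate its labelled areas, and the comparison is given with and without it. Leaving it out selects on the side difference that is then tested, so that the calls without it, and the counts drawn from them, depend on that choice.

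With all pools, 0 probes were called when the side difference after occlusion was compared with that after sham surgery, although 4733 (15.5%) had an unadjusted p below 0.05, 2917 (9.55%) with the larger and 1816 (5.95%) with the smaller difference after occlusion, and the smallest adjusted p was 0.302. Without pool 11, 2195 probes were called (7.19%), of which 1863 (6.1%) had the larger difference after occlusion and 332 (1.09%) the smaller or more negative one. Of the reactive astrocyte genes 16 of 20 rose more on the periinfarct side than on the sham side, of the microglia and macrophage markers 17 of 18, of the cell division genes 15 of 16, of the interferon-induced genes 12 of 18 and of the chemokines and cytokines 9 of 19. Of the neuron markers 3 of 11 fell more, Snap25 among them (−1.15, adjusted p = 0.0289). Serpina3n was further apart by 5.37 (SE 0.79, limma adjusted p = 0.00973), Gfap by 2.53 (SE 0.42, adjusted p = 0.0139), Cd44 by 4.33 (adjusted p = 0.00488) and Spp1 by 6.16 (adjusted p = 0.0385).

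Of A2m and the 9 reactive astrocyte genes high in sham pools 15 and 16, A2m and C3 were not called without pool 11. The side difference of A2m after occlusion exceeded that after sham surgery by 3.35, with an adjusted p of 0.0514 just over the limit, and that of C3 by 1.13 (adjusted p = 0.106). In sham pool 15 the side difference of A2m was 3.47, against 4.13 in occluded pool 12, the lowest of the 3 occluded pools other than pool 11. For Serpina3n the corresponding values were 3.44 in sham pool 15 and 6.23 in occluded pool 9. The comparison also differs in the tissue taken, since the periinfarct area borders an infarct and the sham area is labelled only as ipsilateral.

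**Figure D5:**
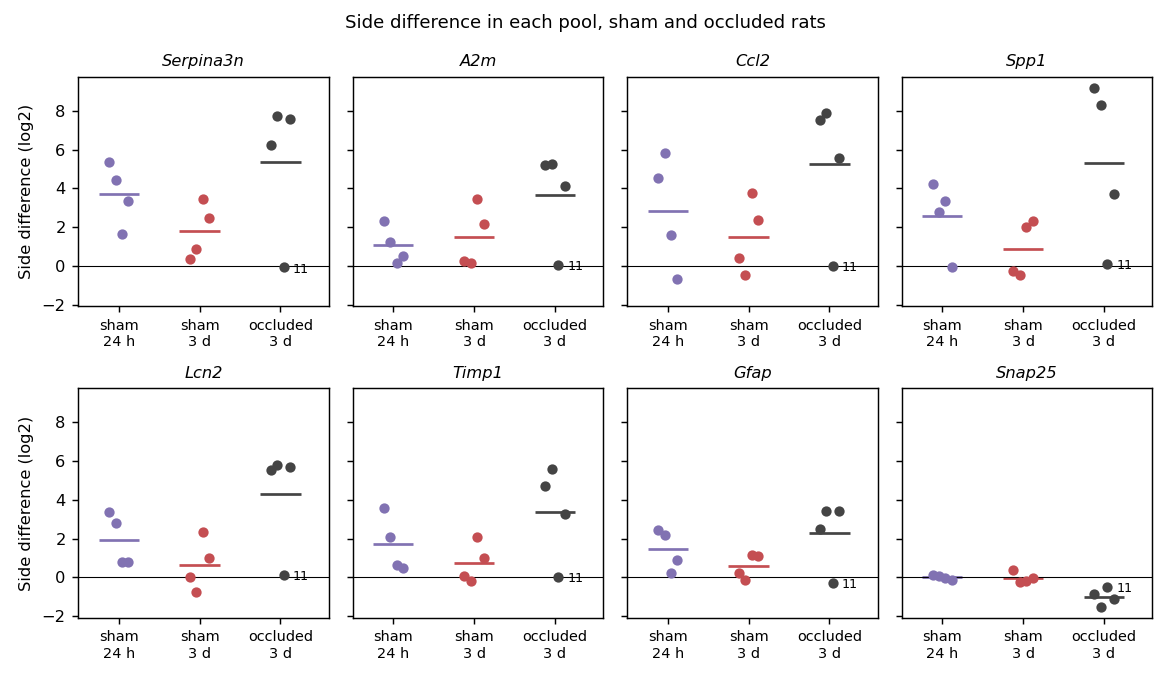
Log2 difference between the sides in each pool for 8 genes, in sham rats at 24 h (purple, ipsilateral minus contralateral), sham rats at 3 d (red, the same) and occluded rats at 3 d (black, periinfarct minus contralateral); horizontal bars are means over 4 pools and pool 11 is marked. At 3 d the sham pools divide into low and high ones for all panels but Snap25, Serpina3n included, and pool 11 lies apart from the other occluded pools, near 0 except for Gfap (−0.28) and Snap25 (−0.49).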

How the data were processed

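The signal intensities were deposited as scanner files that the authors made with Agilent Feature Extraction 10.7.3.1, which per the file headers subtracted background and spatial trend without normalizing between arrays. Per the file headers, deposited flags of 0 or 1 score each spot as above background or as an outlier. A normalized log2 table that the authors made in GeneSpring by quantile normalization above a threshold of 1 served only as an alternative. The labels describe RNA extraction and labelling for small RNA, the study's methods an mRNA protocol for these arrays, and this conflict was not settled.

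Signals below 1 were set to 1, and the log2 values of all 44 arrays were quantile normalized. Flagged outlier spots were then set to missing, and the values were averaged per probe. The study's criteria were followed, but with Agilent's flag for a signal positive and significant against background in place of the GeneSpring flags. The probes kept are therefore not the study's set. This flag is not the well-above-background flag by which probes are described in the results. Probes were kept if above the 20th percentile and so flagged in 75% of the arrays of a group. They also needed a coefficient of variation above 2.5%. This left 30539 of 41012, of which 14 had a missing value on the 8 arrays. Of all probes 16815 were named by their RefSeq accession and 2502 by the authors' annotation, and 21695 had no symbol. Fits used limma 3.58.1 in R 4.3.3 (statmod 1.5.0; data.table, version 1.17.8), with the pool as a fixed block (3 residual and 2.08 prior degrees of freedom), Benjamini-Hochberg adjustment over all kept probes and calls at an adjusted p below 0.05 and 2-fold. Fits were tested on simulated data. Figures were drawn with matplotlib 3.10.9, with pandas 2.3.3 and numpy 2.4.6 in Python 3.11.15. A gene was read from its brightest probe.

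The rat numbers in the labels pair the sides. Deviations from the group means of the 2 sides of one pool had correlations of 0.244, 0.0636, 0.445 and 0.452 in pools 13 to 16 (mean 0.301), against a mean of −0.103 and a highest value of 0.308 between pools. The genes named were, where calls were lacking, the 12 largest differences per direction with an unadjusted p below 0.05, one direction in all 4 pools and signal above background on all arrays of a side, then the first 2 members of each list and the members with such a p and direction. The comparison and all 27 lists (366 symbols, 330 with a kept probe) were chosen with earlier results of these data known.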

Additional observations from a re-analysis of the deposited data

Results flagged for a closer look

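In sets of 4 values, the highest or lowest value was compared with its neighbours by Dixon's test, which marks about 1 set in 20 by chance. Of 118 sets examined, 4 held a value far from the others. The side difference of Fkbp5, a glucocorticoid-induced co-chaperone, was −0.40 in pool 13 and between 0.03 and 0.09 in the other pools. That of Ckm, the muscle creatine kinase, was 2.12 in pool 15 and between −0.03 and 0.30 in the others, on a probe that was not well above background on any of the 8 arrays. That of Pdgfra, a receptor of oligodendrocyte precursors, was 0.15 in pool 15 and between −0.23 and −0.17 in the others. The opposite-side array of pool 16 had a median signal of 55.2 before normalization, against 40.3 to 40.8 for the other opposite-side arrays, and the operated array of the same pool had 54.4.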

How the results depend on the processing

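For the side difference at 3 d, 0 probes were called under 19 of 20 alternatives. The exception, the 16 sham arrays fitted together with the pool as a block, called 1 probe without a symbol, A_44_P563496, which was lower on the operated side by 1.38 on the log2 scale (SE 0.10, adjusted p = 0.0316 in limma), differed by 0.30 at 24 h, and was well above background on 1 operated and 3 opposite arrays. The number at an unadjusted p below 0.05, 957, was 455 with no replicate block, 558 with all 16 sham arrays, 436 with all 44 arrays and the block and 316 without it, 367 with normexp, 241 in the authors' table, 423 with probes filtered on the 2 groups, 555 with an intensity trend and 323 when symbols were counted. Leaving out each pool gave 848 to 1458 (the latter without pool 15), and 0 calls each time.

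The change from 24 h to 3 d had 0 calls throughout, with 299 at an unadjusted p below 0.05 with no replicate block and 505 to 1340 when a pool was left out (the latter without pool 8, against 566). The comparison with occlusion had 0 to 2195 calls and 2207 to 8960 at an unadjusted p below 0.05 when a pool was left out, both highest without pool 11. The block changed no other call. Under scaling to the 75th percentile, normexp, the slide block or without single pools, 176 list medians stayed within the spread of the pools and 13 did not, 7 of them with the slide block; the neutrophil median, −0.05, was 0.04 after that scaling and without pool 13, 0.03 with normexp and 0.22 with the slide block. Of the single genes, 1477 values stayed within the spread of the pools and 47 moved further; of 86 genes, direction turned for 26 with the slide block, 10 with normexp, 9 after scaling to the 75th percentile and 8 to 16 when a pool was left out (the latter without pool 15). Pools 9, 10, 14 and 16, when left out, lowered the count against occlusion to 2407, 2207, 2985 and 3001. The causes of these shifts were not tested. Slide as a block was not run within the 8 arrays, which lay on 8 slides. In the fit of all 44 arrays, without the pool as a block, it gave 0 calls. This fit, and the list medians with it and with normexp, were chosen after seeing the data. Precision is limited by 4 pools and by dim probes, for which most intervals exceeded 2-fold.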
